A study of Mus musculus with 2 samples.

Results

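The genes described here encode kinesin and dynein motors and their light chains. They are all genes with a protein_coding transcript whose symbol starts with Kif, Klc, Dync or Dynl, which gave 64 of the 21901 genes with such a transcript and of the 55536 annotated genes. RNA-seq had been done on total RNA of the left cerebral cortex of 2 male mice, 8 to 10 months old, labelled 5xFAD X Cast, with 300 ng of RNA per library. Both mice belong to this 1 group and are called replicate 2 and replicate 1 after the labels. The 5xFAD line is known for transgenes of mutant human amyloid precursor protein and presenilin driven by neuronal Thy1 promoter elements, and Cast is a wild-derived strain. The label names the cross, and carriage of the transgenes in each animal was not analysed here. Mice lacking the transgenes were not analysed here, and the values describe levels in the 2 animals and how far these differ.

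Kinesins and dynein are ATP-driven motors that walk along microtubules. In an axon the plus ends of microtubules point away from the cell body, so most kinesins carry cargo outwards and cytoplasmic dynein carries it back. Another set of kinesins builds the mitotic spindle, moves chromosomes and completes cytokinesis, and is made mainly by dividing cells. Most cells of the adult cortex no longer divide, and its long axons depend on the transport motors. Dynein also has a ciliary form, dynein 2, which moves cargo along the inside of cilia.

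The expected counts on genes came to 32380330 reads in replicate 2 and 33925221 reads in replicate 1. The kinesin and dynein genes held 358111 reads in replicate 2, 1.11% of the reads on genes, and 363250 reads in replicate 1, 1.07%. At this depth the floor of 3 reads corresponded to 0.0922 CPM (reads scaled to the library total) in replicate 2 and 0.0880 CPM in replicate 1. All 8 neuronal markers were detected, at a median of 337 TPM in replicate 2 and 297 TPM in replicate 1. They show neuronal RNA and do not tell cortex from other brain regions. TPM is a level scaled to transcript length and to the whole library, so that values of different genes can be compared. A gene was called detected where both libraries reached 1 TPM.

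Of the 64 genes, 49 were detected, which is 76.6%, against 59.6% of all coding genes. By mean TPM, 21 of the 64 lay at or above the 90th percentile of all coding genes, and 4 of them, Kif5a, Klc1, Kif1a and Dynll2, at or above the 99th. When the 64 genes were put in order of mean TPM, the values of the 2 animals did not overlap between neighbours in 25 of 63 neighbouring pairs. Kif5a stood clear of Klc1 below it, whereas Klc1 and Kif1a overlapped, as did Kif1b and Kifc2. Among the detected genes, 38 of 49 had a higher TPM in replicate 2. The median log2 TPM ratio of replicate 2 over replicate 1 was 0.15 for them and 0.12 over all detected coding genes, so a TPM difference of that size is shared by most genes. Read counts after TMM scaling, a normalization that centres most genes on no change, had a median log2 ratio of -0.01 over the same coding genes.

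**Figure D1:**
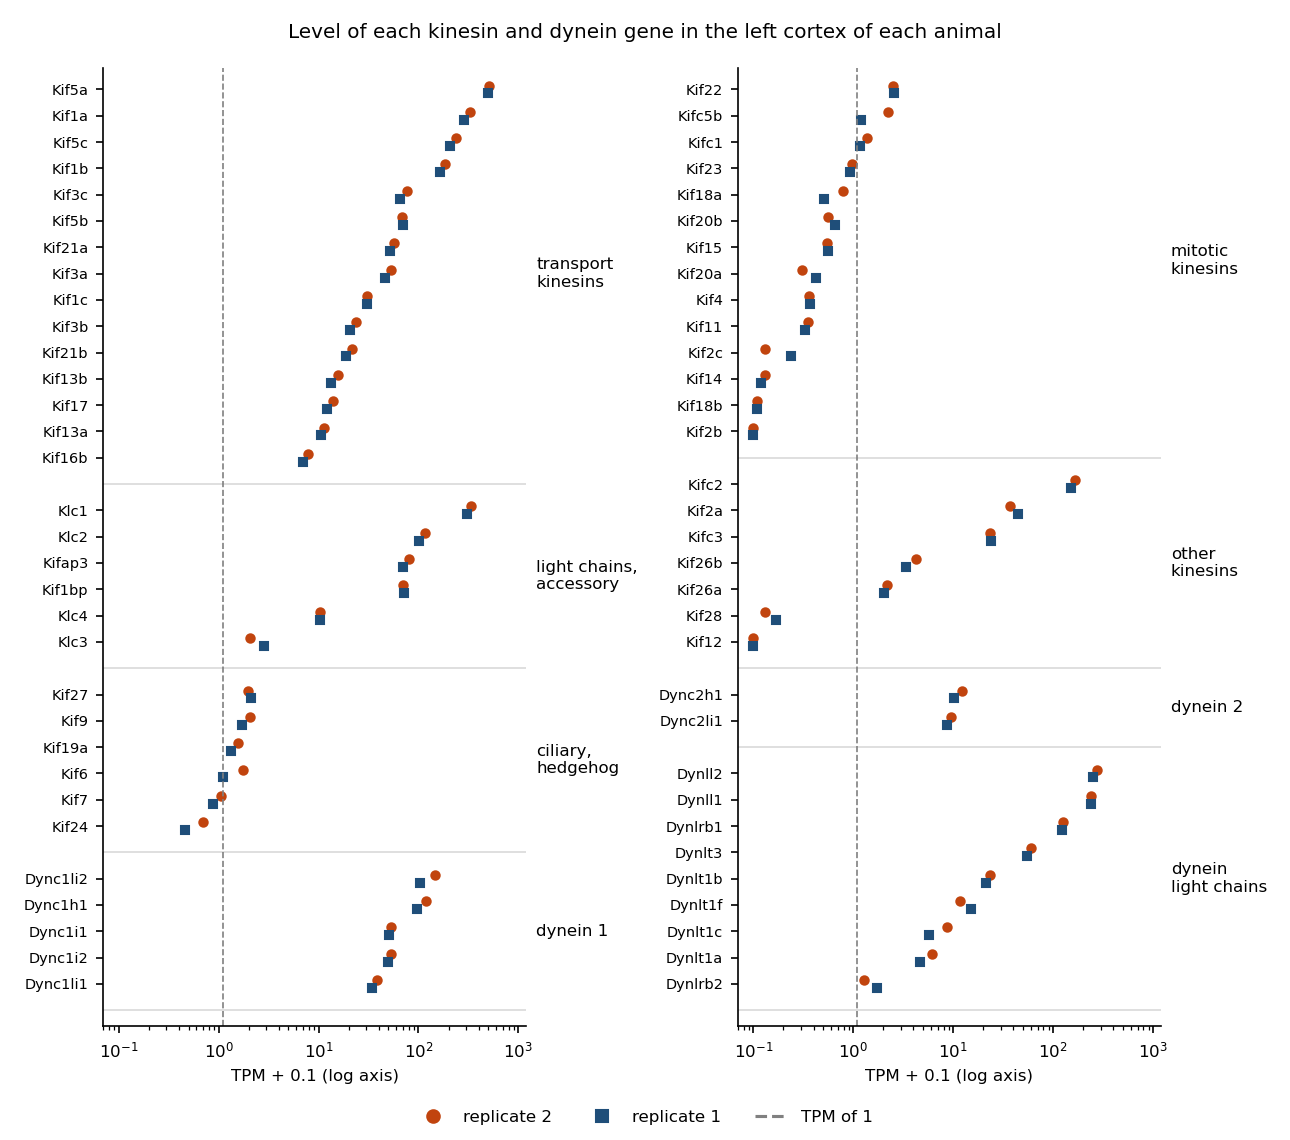
Level of each of the 64 genes in each animal, as TPM + 0.1 on a log axis, grouped by role. Circles are replicate 2, squares are replicate 1 and the dashed line is a TPM of 1. All 15 transport kinesins lie right of the line in both animals, whereas 3 of 14 mitotic kinesins do.

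All 15 kinesins of axonal and dendritic transport were detected. Their median level was 52.4 TPM in replicate 2 and 46.4 TPM in replicate 1, and they took 86.9% of the TPM of all kinesin motors in replicate 2 and 86.3% in replicate 1. Kinesin-1 is the main motor of fast outward transport and is a pair of heavy chains with a pair of light chains. Its neuronal heavy chain Kif5a (chr10:127225696-127263348, mm10, minus strand) had 512 TPM in replicate 2 and 499 TPM in replicate 1, from 70535 and 76979 reads. It was the most abundant of the 64 genes, at 505 ± 9.44 TPM (SD, n = 2). The other neuronal heavy chain, Kif5c (chr2:49619298-49774778, plus strand), had 236 TPM in replicate 2 and 209 TPM in replicate 1. Kif5b, the heavy chain that most cell types make, had 68.2 TPM in replicate 2 and 70.6 TPM in replicate 1. Kif5a made up 62.7% of the kinesin-1 heavy chain TPM in replicate 2 and 64.1% in replicate 1. Kif5b made up 8.36% in replicate 2 and 9.07% in replicate 1. The split depends on the format. From the kallisto-format tables Kif5a made up 49.8% in replicate 2 and 54.7% in replicate 1, and Kif5c 39.6% and 33.3%. In bulk tissue, fewer cells of a type and less RNA per cell cannot be told apart.

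The kinesin-3 motors carry synaptic vesicle precursors and other vesicles. Kif1a (chr1:93015464-93101951, minus strand) had 331 TPM in replicate 2 and 286 TPM in replicate 1. Kif1b (chr4:149176319-149307693, minus strand) had 184 TPM in replicate 2 and 162 TPM in replicate 1, so that Kif1a stood 1.80-fold and 1.76-fold above it in the 2 animals. Kif1c, which moves vesicles in many cell types, had 30.5 TPM in replicate 2 and 30.7 TPM in replicate 1. Kif5a, Kif1a, Kif5c and Kif1b together held 66.8% of the TPM of all kinesin motors in replicate 2 and 66.4% in replicate 1.

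The kinesin-2 made from Kif3 genes is a heterodimer of Kif3a with Kif3b or Kif3c, joined by the accessory protein Kifap3. Kif3c had 77.1 TPM in replicate 2 and 65.0 TPM in replicate 1, Kif3a had 52.4 and 46.4 TPM, and Kif3b had 23.6 and 20.6 TPM. Kif3c, the partner enriched in neurons, was therefore 3.27-fold above Kif3b in replicate 2 and 3.16-fold above it in replicate 1. Genes on the opposite strand overlap 40.7% of the exon bases of Kif3c, and the sources used here do not give the strand setting of the counts. Kifap3 had 79.7 TPM in replicate 2 and 70.7 TPM in replicate 1, 1.52-fold the level of Kif3a in both animals.

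The other 6 transport kinesins had lower levels, between 6.88 and 57.0 TPM per library. Kif21a, a kinesin-4 that limits microtubule growth, stood highest with 57.0 TPM in replicate 2 and 52.2 TPM in replicate 1. Its relative Kif21b had 21.5 and 18.8 TPM. Kif17, a dendritic motor, had 14.0 TPM in replicate 2 and 12.1 TPM in replicate 1. Kif13b, Kif13a and Kif16b, which move endosomes and other vesicles, had means of 14.4 ± 1.77, 10.9 ± 0.43 and 7.33 ± 0.64 TPM (SD, n = 2).

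All 6 light chains and accessory proteins were detected. Klc1 (chr12:111758849-111807844, plus strand), the main neuronal kinesin light chain, had 334 TPM in replicate 2 and 304 TPM in replicate 1. Klc2 had 116 TPM in replicate 2 and 102 TPM in replicate 1, Klc4 had 10.3 TPM in both, and Klc3 had 1.96 and 2.75 TPM. Klc1 made up 72.2% of the light chain TPM in replicate 2 and 72.5% in replicate 1. Summed light chains stood at 462 TPM against 816 TPM of heavy chains in replicate 2, and at 419 TPM against 778 TPM in replicate 1, a ratio of 0.55 ± 0.02 (SD, n = 2). From the kallisto-format tables the ratio was 0.42. Kif1bp, a protein that binds kinesin motor domains and blocks their hold on microtubules, had 70.4 TPM in replicate 2 and 70.9 TPM in replicate 1. Opposite-strand genes overlap 28.1% of the exon bases of Klc3, 10.6% of Klc2 and 10.1% of Kif1bp.

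**Figure D2:**
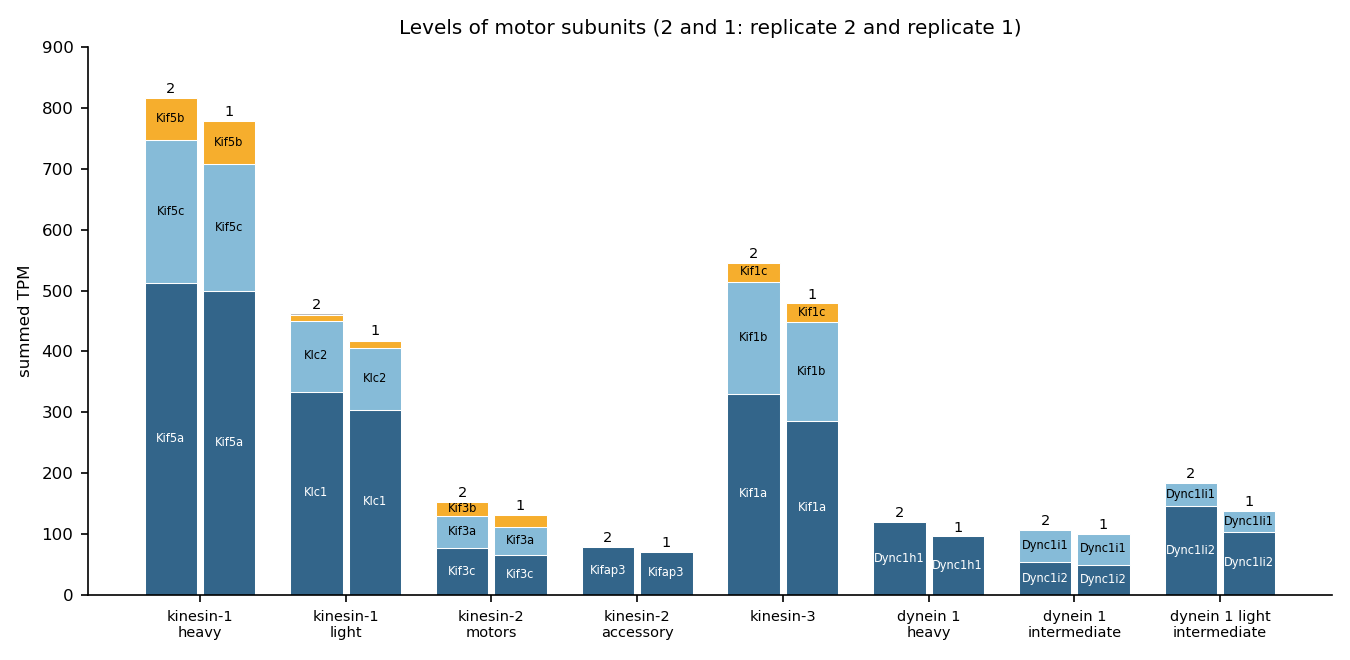
Summed TPM of subunits of kinesin-1, kinesin-2, kinesin-3 and cytoplasmic dynein 1, with each gene as a stacked segment. The kinesin-2 bars hold only Kif3a, Kif3b, Kif3c and Kifap3. In each pair the left bar is replicate 2 and the right bar replicate 1. Kinesin-1 heavy chains reach 816 TPM in replicate 2 and 778 TPM in replicate 1, and the dynein 1 heavy chain 120 TPM and 96.2 TPM.

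The mitotic kinesins were near or below the detection level. Of 14 genes, 3 were detected, Kif22, Kifc5b and Kifc1, and none exceeded 2.45 TPM in a library. Their median was 0.35 TPM in replicate 2 and 0.37 TPM in replicate 1, and together they took 0.481% and 0.451% of the TPM of all kinesin motors. They held 365 reads in replicate 2 and 331 reads in replicate 1, where the 15 transport kinesins held 232190 and 239156 reads. A list of 18 cell cycle genes with other symbols includes Cenpe, which encodes a kinesin of the kinetochore. These 18 genes had medians of 0.44 TPM in replicate 2 and 0.35 TPM in replicate 1, and 0 of them were detected. Their highest means were those of the checkpoint kinase Bub1b, at 0.94 TPM in replicate 2 and 1.21 TPM in replicate 1, of the spindle protein Tpx2, at 1.01 and 0.77 TPM, and of the mitotic kinase Aurka, at 0.99 and 0.45 TPM.

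Kif22, a chromokinesin that pushes chromosome arms, had the highest mean of the mitotic list, with 2.42 TPM in replicate 2 and 2.45 TPM in replicate 1. These values rest on 17 reads in replicate 2 and 24 reads in replicate 1, and a retained-intron transcript took 53.5% and 44.8% of the TPM. Kifc5b had 2.13 TPM in replicate 2 and 1.10 TPM in replicate 1, and Kifc1, a minus-end motor that focuses spindle poles, had 1.28 and 1.06 TPM. When only protein_coding transcripts were counted, 1 of the 14 genes stayed at 1 TPM or more in both libraries, which was Kif22 at 1.05 TPM in replicate 2 and 1.33 TPM in replicate 1. Most of this was Kif22-202, a short coding transcript of 150 residues, at 0.9 TPM in replicate 2 and 1.26 TPM in replicate 1. The longer Kif22-201, of 660 residues, had 0 and 0.07 TPM.

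Kif11, the motor that pushes spindle poles apart, had 0.25 TPM in replicate 2 and 0.23 TPM in replicate 1, from 26 and 27 reads. Kif23, a subunit of the centralspindlin complex of cytokinesis, had 0.88 TPM in replicate 2 and 0.83 TPM in replicate 1, from 27 and 38 reads. Kif18b, which shortens astral microtubules, had 1 read in each library. Kif2b, a kinesin-13 of the kinetochore, had 0 reads in both libraries, which allows up to 0.0922 CPM in replicate 2 and 0.0880 CPM in replicate 1. Kif18a, which dampens chromosome movements at metaphase, had 0.69 TPM in replicate 2 and 0.41 TPM in replicate 1, and Kif20b, a kinesin of cytokinesis, had 0.46 and 0.55 TPM. The remaining 5 mitotic kinesins, Kif15, Kif20a, Kif4, Kif2c and Kif14, had means between 0.025 TPM for Kif14 and 0.45 TPM for Kif15. Opposite-strand genes overlap 29.3% of the exon bases of Kif20a and 15.1% of those of Kif4. At these read numbers the order of levels among the mitotic kinesins is uncertain.

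On a scale of log2(TPM + 0.1), the median transport kinesin lay 6.90 above the median mitotic kinesin in replicate 2 and 6.65 above it in replicate 1, a mean of 6.77 ± 0.17 (SD, n = 2). Every transport kinesin exceeded every mitotic kinesin in both libraries, with 6.88 TPM as the lowest transport value and 2.45 TPM as the highest mitotic one. The lists were drawn up with these levels known, and the gap was given no test. Its size depends on the pseudocount, since the mitotic genes are close to 0.

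Promoters are shown because their motifs differed between the transport and mitotic kinesins. The lists were drawn up by role and not by motif, but the CHR described below is known from cell cycle genes. The motif counts are therefore not independent of the lists. RefSeq promoter windows (GRCm38.p6, 300 bases, from 250 before to 50 after a start) were matched for 49 of the 64 genes and for 16877 of all 21901 coding genes. Motifs were searched on both strands. The cell cycle genes homology region, CHR, was searched as TTTGAA, and the CCAAT box as CCAAT. In human and mouse cells these elements are known to bind the MuvB complexes and the factor NF-Y at many cell cycle promoters. The stretches below run from 120 bases before to 20 after the start, read along the strand of the gene, with CHR and CCAAT matches on either strand in capitals. The first 4 are mitotic kinesins and the last 2 are transport kinesins, which hold neither motif in these stretches.
Kif11 (chr19:37376262-37376401, plus strand): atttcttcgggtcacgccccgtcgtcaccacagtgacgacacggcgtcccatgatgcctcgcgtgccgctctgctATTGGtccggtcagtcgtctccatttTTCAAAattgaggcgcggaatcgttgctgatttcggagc
Kif23 (chr9:61946780-61946919, minus strand): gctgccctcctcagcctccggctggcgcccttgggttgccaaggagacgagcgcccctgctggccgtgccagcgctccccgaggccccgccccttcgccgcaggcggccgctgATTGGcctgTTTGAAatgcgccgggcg
Kif18b (chr11:102925105-102925244, minus strand): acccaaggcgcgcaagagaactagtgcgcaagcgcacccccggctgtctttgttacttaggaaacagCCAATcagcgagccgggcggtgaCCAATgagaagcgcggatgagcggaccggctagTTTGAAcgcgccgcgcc
Kifc1 (chr17:33890614-33890753, minus strand): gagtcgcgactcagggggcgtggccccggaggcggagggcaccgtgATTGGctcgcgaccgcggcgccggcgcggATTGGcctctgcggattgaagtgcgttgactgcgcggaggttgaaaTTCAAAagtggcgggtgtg
Kif1a (chr1:93101855-93101994, minus strand): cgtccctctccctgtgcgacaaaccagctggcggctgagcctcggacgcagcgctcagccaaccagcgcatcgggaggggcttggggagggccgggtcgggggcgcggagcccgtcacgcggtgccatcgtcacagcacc
Kif5c (chr2:49619166-49619305, plus strand): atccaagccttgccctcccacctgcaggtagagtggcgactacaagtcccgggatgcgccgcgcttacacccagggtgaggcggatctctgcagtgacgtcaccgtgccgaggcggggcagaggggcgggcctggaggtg

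A CHR match was present in 0 of 11 transport kinesin windows and in 11 of 13 mitotic kinesin windows, against 15.6% of all coding windows. Among the remaining members, Kif27 and Kif26b also held one. In 9 of the 11 mitotic windows a match began within 100 bases before or 50 after the start. In the sequences printed above it began at position -19 of Kif11, +3 of Kif23, +4 of Kif18b and +2 of Kifc1, counted from +1 at the start. A CCAAT match was present in 3 of 11 transport windows and 9 of 13 mitotic windows, against 39.0% of all. Both motifs together occurred in 0 transport windows and 8 mitotic windows, against 6.46% of all. Kifc1 and Kifc5b, whose promoter stretches are nearly alike, each held both motifs and were counted as separate windows. The GC box, searched as GGGCGG, was present in 9 transport windows and 6 mitotic windows, against 48.5% of all. The windows also differed in base composition, with a median GC content of 69.3% for the transport kinesins, 60.7% for the mitotic ones and 57.0% for all, and its part in the motif counts was not tested. A match is a description of reference letters and does not show that a factor binds there. Cast alleles of the promoters were not examined. The window lay within 500 bases of the start of the leading transcript in 38 of the 49 members. For Kif23, Kif22, Kif20b, Kif2a and Kif17 it lay 10023, 14304, 47723, 28194 and 11816 bases away. In these genes the leading transcript starts elsewhere, while the coding transcripts Kif23-201, Kif22-201, Kif20b-201, Kif2a-206 and Kif17-201 start inside the windows.

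**Figure D3:**
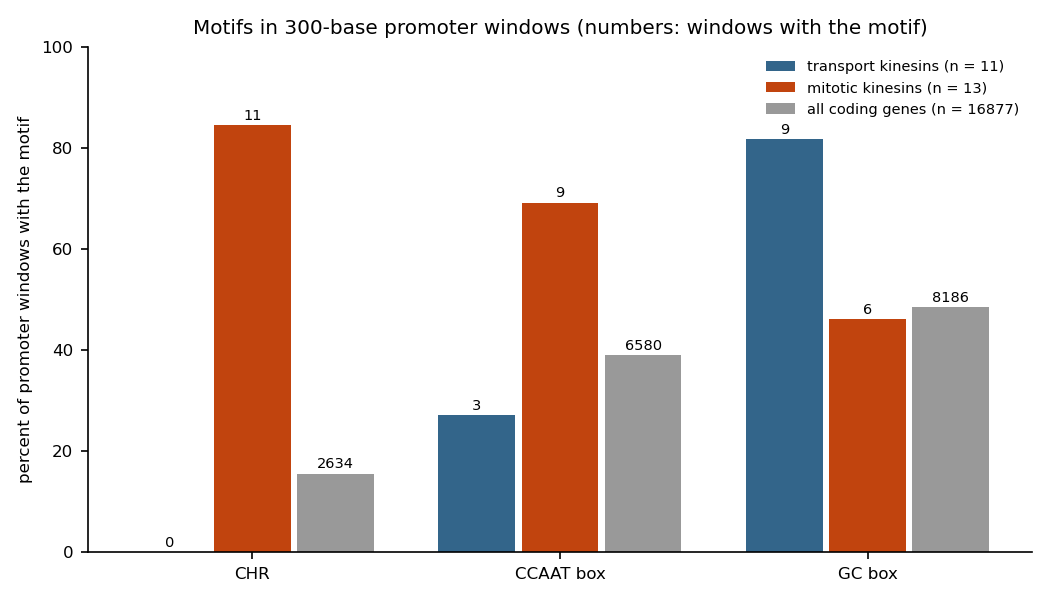
Percent of promoter windows with a CHR, CCAAT box or GC box match among transport kinesins (n = 11), mitotic kinesins (n = 13) and all coding genes (n = 16877), with the number of windows above each bar. The CHR bar is at 0 for the transport kinesins and at 11 windows for the mitotic kinesins.

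Among the kinesins with roles in cilia and hedgehog signalling, 4 of 6 were detected, all at low levels. Kif27 had 1.88 TPM in replicate 2 and 2.00 TPM in replicate 1, and Kif9, a motor of motile cilia, had 1.97 and 1.63 TPM. Kif19a, which shortens cilia, had 1.48 TPM in replicate 2 and 1.24 TPM in replicate 1, and Kif6 had 1.66 and 1.01 TPM. Kif7, the hedgehog regulator at the tip of the primary cilium, had 0.96 TPM in replicate 2 and 0.78 TPM in replicate 1, and opposite-strand genes overlap 20.3% of its exon bases. Kif24 had 0.59 and 0.36 TPM. The median of 12 markers of ependyma and motile cilia was 0.80 TPM in replicate 2 and 0.97 TPM in replicate 1 and no marker at 0. The part of ependymal cells in these kinesin levels was not tested.

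Of the other 7 kinesins, 5 were detected. Kifc2, a minus-end kinesin of neurons, stood among the most abundant of all members, with 164 TPM in replicate 2 and 150.5 TPM in replicate 1. Kif2a, a kinesin-13 that removes tubulin from microtubule ends and prunes axons, had 36.5 TPM in replicate 2 and 44.5 TPM in replicate 1. Its reads were 2309 in replicate 2 and 2377 in replicate 1, and a short coding transcript, Kif2a-205, took 20.9% and 42.9% of its TPM. That transcript was listed at 0 in the kallisto-format tables, where Kif2a had 27.3 TPM in replicate 2 and 27.5 TPM in replicate 1. Kifc3 had 23.1 and 23.8 TPM, and opposite-strand genes overlap 27.5% of its exon bases, as they do 19.2% of those of Kif2a. Kif26b and Kif26a, which lack motor activity, had means of 3.70 ± 0.61 and 2.00 ± 0.13 TPM (SD, n = 2). Kif28 had 2 reads in replicate 2 and 6 reads in replicate 1, and Kif12 had 0 reads in both.

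All 5 heavy, intermediate and light intermediate chains of cytoplasmic dynein 1 were detected. The heavy chain Dync1h1 (chr12:110601452-110666945, plus strand), which holds the motor, had 120 TPM in replicate 2 and 96.2 TPM in replicate 1. The intermediate chains, which hold the complex together and bind dynactin, were at nearly equal levels. Dync1i1, the form enriched in neurons, had 53.6 TPM in replicate 2 and 50.4 TPM in replicate 1, and Dync1i2, the form found in all tissues, had 53.5 and 49.9 TPM. Summed intermediate chains stood at 0.89 of the heavy chain in replicate 2 and 1.04 in replicate 1, a mean ratio of 0.97 ± 0.10 (SD, n = 2). The light intermediate chains link dynein to its activating adaptors. Dync1li1 had 38.0 TPM in replicate 2 and 34.2 TPM in replicate 1. Dync1li2 had 146 TPM in replicate 2 and 104 TPM in replicate 1, from 7408 and 7230 reads. The gap in its TPM went with 1 short processed transcript of 2 exons, which had 53.1 TPM in replicate 2 and 22.1 TPM in replicate 1 and was listed at 0 in the kallisto-format tables. There, Dync1li2 had 89.5 TPM in replicate 2 and 89.1 TPM in replicate 1.

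Both subunits of dynein 2 were detected. Its heavy chain Dync2h1, the motor of return transport in cilia, had 12.3 TPM in replicate 2 and 10.0 TPM in replicate 1. Dync1h1 stood 9.75-fold above it in replicate 2 and 9.62-fold above it in replicate 1. The light intermediate chain Dync2li1 had 9.35 TPM in replicate 2 and 8.66 TPM in replicate 1.

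All 9 dynein light chains were detected. Dynll2 and Dynll1, the LC8 light chains, which also bind many other proteins and myosin V, were the most abundant. Dynll2 had 276 TPM in replicate 2 and 250.2 TPM in replicate 1, and Dynll1 had 241 and 240.4 TPM. Together they stood 4.31-fold above Dync1h1 in replicate 2 and 5.10-fold above it in replicate 1. The roadblock light chain Dynlrb1 had 124 TPM in replicate 2 and 123 TPM in replicate 1, and its relative Dynlrb2, known from motile cilia and testis, had 1.19 and 1.64 TPM. Dynlt3, a Tctex light chain, had 59.7 TPM in replicate 2 and 54.3 TPM in replicate 1.

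The other Tctex light chain is encoded by 4 annotated copies on chromosome 17, Dynlt1a, Dynlt1b, Dynlt1c and Dynlt1f. Their reference sequences are shown because their likeness limits how far reads of the copies can be told apart. The sequences are those of the M21 annotation, and the Cast alleles and number of copies in these mice were not examined. In this reference the coding sequences of the copies have 339 bases each. Those of Dynlt1a, Dynlt1c and Dynlt1f were identical, and that of Dynlt1b differed from them at 1 base. The first 60 coding bases follow, with that base in capitals.
Dynlt1b-201: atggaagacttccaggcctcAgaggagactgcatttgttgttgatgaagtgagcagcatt
Dynlt1c-201: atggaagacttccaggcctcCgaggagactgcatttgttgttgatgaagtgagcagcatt

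Over all transcripts, 47.4% of the 100-base windows of Dynlt1a, 82.0% of Dynlt1b, 79.7% of Dynlt1c and 78.0% of Dynlt1f occurred in another gene, so the split of reads among the copies is uncertain. As deposited, Dynlt1b had 23.4 TPM in replicate 2 and 21.1 TPM in replicate 1, Dynlt1f had 11.7 and 14.8 TPM, Dynlt1c had 8.63 and 5.56 TPM, and Dynlt1a had 6.05 and 4.50 TPM. Summed over the copies, the level was 49.7 TPM in replicate 2 and 46.0 TPM in replicate 1, below that of Dynlt3.

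The partners of the motors were detected nearly throughout. All 9 dynactin subunits, the cofactor that dynein needs for long runs, were detected, with a median of 72.4 TPM in replicate 2 and 73.0 TPM in replicate 1. Dctn1, the subunit that binds dynein and microtubules, led them with 159 TPM in replicate 2 and 139 TPM in replicate 1, followed by Actr1b, a subunit of the actin-like filament, with 132 and 120 TPM, and Dctn2 with 115 and 109 TPM. Of 14 dynein regulators and activating adaptors, 12 were detected, and Spdl1 and Rilp were not. Pafah1b1, the regulator LIS1, had 156 TPM in replicate 2 and 143 TPM in replicate 1, Hap1 had 80.8 and 81.6 TPM, and Bicdl1 had 62.7 and 54.2 TPM. All 14 kinesin cargo adaptors were detected, with a median of 88.7 TPM in replicate 2 and 77.8 TPM in replicate 1. Mapk8ip3, which links kinesin-1 to vesicles, had 165 TPM in replicate 2 and 144 TPM in replicate 1. Mapk8ip1 had 144 TPM in both. Arl8a, the lysosomal GTPase that recruits kinesins, had 118 TPM in replicate 2 and 115 TPM in replicate 1.

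The transcript tables gave the mix of transcripts behind each level. In 43 of the 49 detected members the leading transcript was typed protein_coding. It took at least 80% of the TPM of its gene in 17 members and under 50% in 10. Over the detected members, coding transcripts took a median of 92.6% of the TPM, against 89.9% over all detected coding genes. Kif5a was carried by 1 transcript, Kif5a-201, with 99.3% of its TPM in replicate 2 and 99.5% in replicate 1. Kif1b, which has a long and a short protein with different cargo-binding tails, was led by the long form Kif1b-203 of 1816 residues, at 81.6% in replicate 2 and 80.5% in replicate 1.

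The other 6 detected members were led by transcripts not typed protein_coding. Kif21b was led by Kif21b-204, typed nonsense_mediated_decay, with 61.1% of its TPM in replicate 2 and 49.3% in replicate 1, and its coding transcripts took 19.6% and 35.3%. Dynll1 was led by the processed transcript Dynll1-203, with 45.1% in replicate 2 and 46.8% in replicate 1, so that its coding transcripts took 42.3% and 41.0%. Kif22, Kif6, Dynlt1a and Dynlt1c were led by retained-intron transcripts. The leading transcript was the same in the RSEM-format and kallisto-format tables in 39 of the 49.

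**Figure D4:**
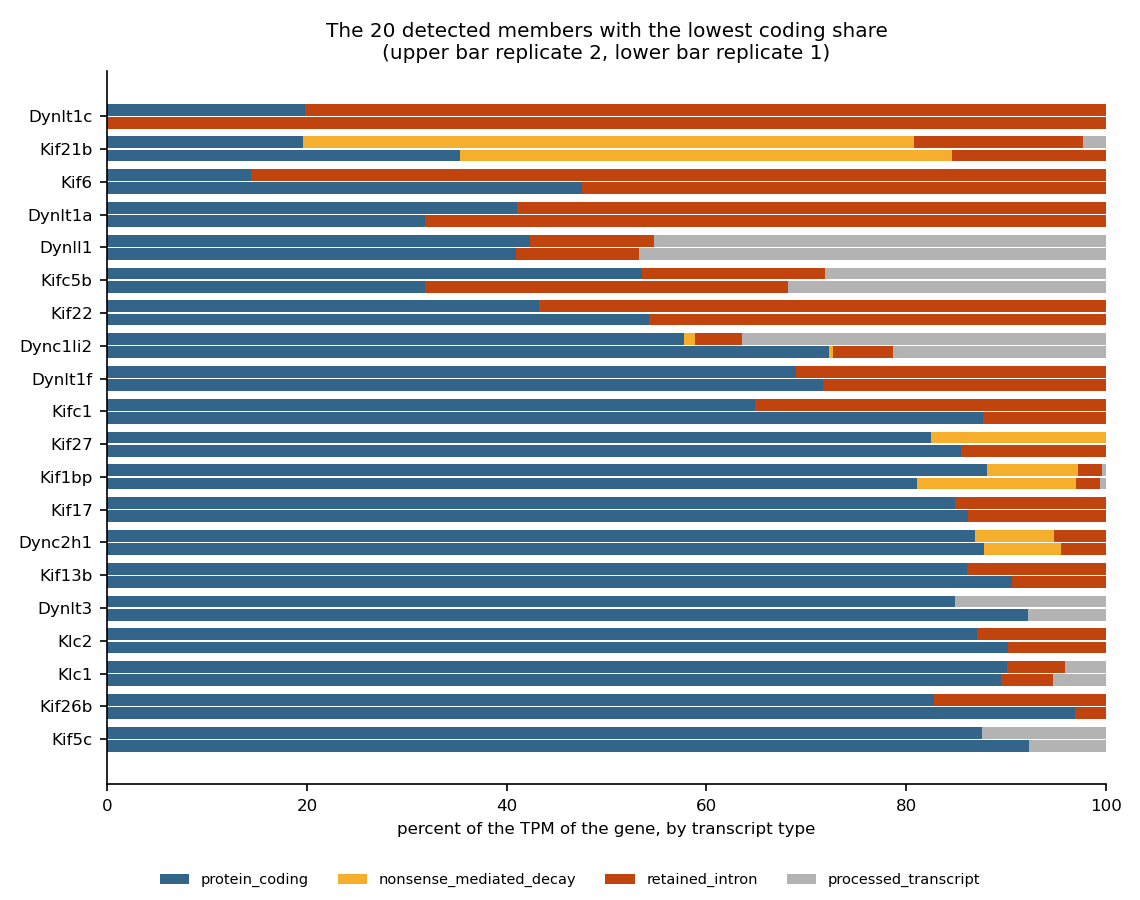
Percent of the TPM of a gene by transcript type, for the 20 detected members with the lowest coding share, with replicate 2 as the upper and replicate 1 as the lower bar of each pair. Dynlt1c, Kif21b, Kif6, Dynlt1a, Dynll1, Kifc5b and Kif22 have the lowest coding shares.

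Reads were compared between the animals gene by gene, with 1 library on each side, so the differences describe these 2 libraries and have no p-value. A gene was called unequal where 1 library or both held 10 reads and equal levels, after TMM scaling, lay outside the exact binomial (Clopper-Pearson) interval of its read split at an alpha of 0.001. The intervals printed with ratios are of the same kind at 95% and cover counting error only, since each side holds 1 library. Reads are not independent molecules, so the intervals may be too narrow even for counting error. Of 58 members with enough reads, 9 were unequal, against 8.76% of the 19484 genes so measured. Of these, 5 were higher in replicate 2, against a background of 4.25%, and 4 were higher in replicate 1, against 4.51%. The rule finds smaller differences in deeper genes. Among members with a mean of at least 1000 reads, 6 of 30 were unequal, against 18.7% of all genes at that depth. Unequal counts with a difference of at least 2-fold occurred in 0 members by this rule, against 1.22% of all genes. The median log2 ratio of the members was -0.005, against -0.001 for all genes, and their median absolute log2 ratio was 0.08, against 0.13. The absolute ratios were not compared at like depth. At a mean of at least 1000 reads, the share of unequal members was near the background. Members of fewer reads were not set against genes of like depth.

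Among the abundant motors the differences were small. Dync1h1 had 35520 reads in replicate 2 and 31565 reads in replicate 1, a log2 ratio of 0.20 (95% interval 0.18 to 0.23). Kif1a differed by 0.08 (0.06 to 0.10) and Kif1b by 0.06 (0.04 to 0.08) on the log2 scale, both higher in replicate 2. Kif5a had a log2 ratio of -0.09 (-0.11 to -0.08), Kif5b of -0.12 (-0.17 to -0.08) and Kif1c of -0.15 (-0.22 to -0.08), and so were higher in replicate 1. With the kallisto-format counts Kif1b and Dynlt1f were not called, and Kif5c, Kif1bp and Klc3 were called in addition, each higher in replicate 1, so that 4 members were higher in replicate 2 and 6 in replicate 1. Klc3, with 72 reads in replicate 2 and 118 reads in replicate 1, had a log2 ratio of -0.67 (-1.12 to -0.24) from the RSEM-format counts and was not called there. Scaling by spike-in totals in place of TMM shifted all ratios by 0.08 and left Kif5a, Kif5b and Kif1c uncalled. The shares of all genes called with kallisto-format counts or spike-in totals are not given here.

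The other 3 unequal members share sequence with copies. Dynlt1c had 413 reads in replicate 2 and 276 reads in replicate 1, a log2 ratio of 0.61 (0.39 to 0.84). Dynlt1f had 398 reads in replicate 2 and 538 reads in replicate 1, a log2 ratio of -0.40 (-0.59 to -0.21). With the reads of the 4 Dynlt1 copies summed, replicate 2 had 1573 and replicate 1 had 1516, and the log2 ratio was 0.09 (-0.02 to 0.19) and not unequal. Kifc5b (chr17:26917091-26932583, plus strand) had 97.8 expected reads in replicate 2 and 50.4 in replicate 1, a log2 ratio of 1.00 (0.50 to 1.53) that lay just under 2-fold. Kifc1 (chr17:33875659-33890661, minus strand) shares 17.0% of its windows with Kifc5b and had 60.2 and 55.7 expected reads. Summed over both, replicate 2 had 158 reads and replicate 1 had 106, a log2 ratio of 0.61 (0.25 to 0.98) that was unequal.

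**Figure D5:**
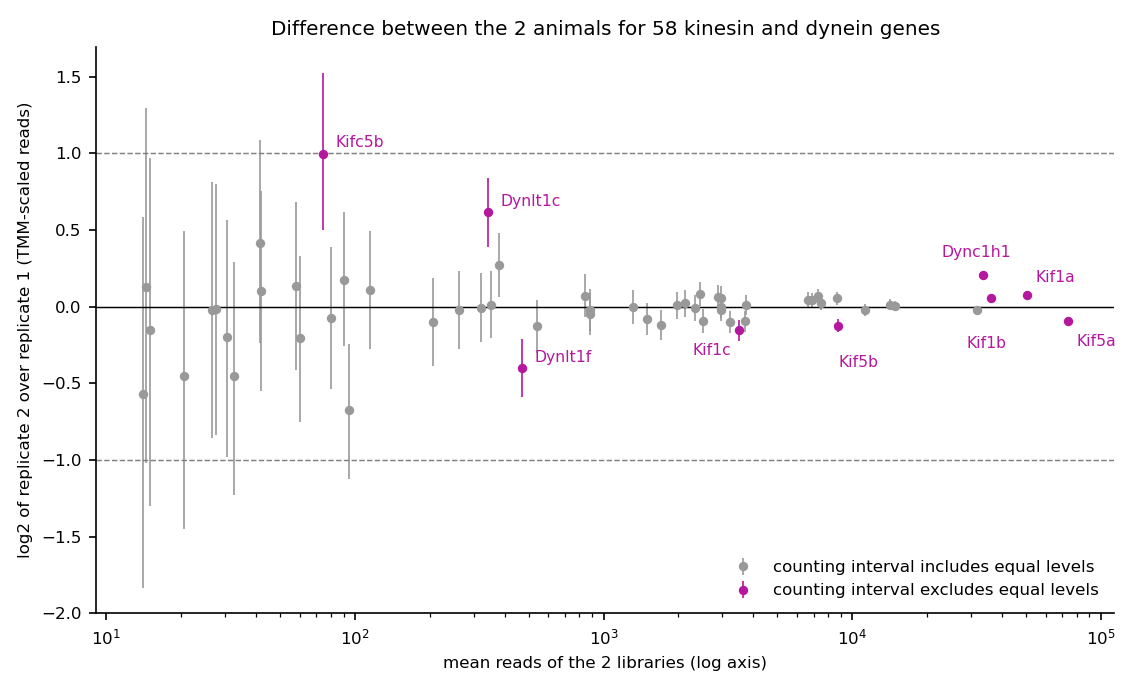
Log2 ratio of TMM-scaled reads, replicate 2 over replicate 1, against mean reads on a log axis for the 58 members with enough reads. Points are ratios, bars are 95% Clopper-Pearson intervals for counting error, coloured and named points are the 9 unequal members, and dashed lines mark 2-fold. Named points at high read numbers lie close to 0. Kifc5b, Dynlt1c and Dynlt1f lie farthest from it among the named points, and some unnamed points of few reads, such as Klc3 at -0.67, lie as far out.

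Markers of some cell types moved with the animals. All 10 choroid plexus markers were unequal and at least 2-fold higher in replicate 1, with a summed level of 111 TPM in replicate 2 and 564 TPM in replicate 1. Of the astrocyte markers 6 of 7, of the oligodendrocyte markers 5 of 8 and of the microglia markers 3 of 7 were unequal, each higher in replicate 1, with median log2 ratios of -0.14, -0.12 and -0.17. Of 8 neuronal markers, 3 were higher in replicate 2 and 1 in replicate 1, with a median of 0.02. Of the markers of oligodendrocyte precursors 1 of 7 and of endothelium 1 of 6 were unequal. Of the markers of ependyma and motile cilia, 0 of 11 with enough reads were unequal, and their median log2 ratio was -0.26, with 8 of 10 below 0. No marker of these lists was at 0 in either library. The part of cell mix in the motor gene differences was not tested. Among the partners, 0 of 9 dynactin subunits were unequal. The dynein adaptor Hap1 had a log2 ratio of -0.15 (-0.21 to -0.10) and the kinesin-1 adaptor Mapk8ip1 of -0.14 (-0.18 to -0.10), both higher in replicate 1. Madd, which links Kif1a and Kif1b to Rab3 vesicles, had a ratio of 0.12 (0.07 to 0.16), and Jakmip1 of 0.18 (0.09 to 0.26), both higher in replicate 2.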

How the data were processed

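For each library the authors deposited RSEM-format tables of genes and of transcripts, with expected counts, TPM, FPKM and, per the file headers, the percent of each gene that falls to a transcript. A kallisto-format transcript table holds estimated counts and TPM, per the file headers. A deposited description names mm10 and annotation M21. Per the labels' protocols, ribosomal RNA was depleted, a directional kit was used and spike-in RNA was added. The sources used here give no aligner, program versions or strand setting.

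Levels are the deposited TPM. Deposited FPKM served as an alternative. Expected counts were rounded and scaled with TMM (edgeR 4.0.16, R 4.3.3), with 0.5 reads added per library for ratios. DESeq2 1.42.0 size factors, spike-in totals and kallisto-format counts were alternatives. There were 96 spike-ins, kept out of library sizes. Shared sequence was measured as 100-base windows of annotated transcripts found in another gene.

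Any member could be named. The rule asked for values of the 6 most abundant per role list, of members that met a counting rule and of the extremes of the mitotic list. Values of further members, Kif11 and Klc3 among them, were added after their values were seen. From partner lists the 3 most abundant and any unequal gene were named. Members and lists were chosen with earlier results of these data known. Of the listed symbols, Kif19b and Kif25 were not matched. The labels give the mice as biological replicates, and the intervals do not include the spread between animals. Promoters came from RefSeq (GRCm38.p6), Dynlt1 coding sequences from the M21 transcripts.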

Additional observations from a re-analysis of the deposited data

How the results depend on the processing

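The gap between the medians of transport and mitotic kinesins, 6.77 on the log2(TPM + 0.1) scale, was 6.37 with kallisto-format TPM, 5.21 with a pseudocount of 1, 7.97 with the 8 core transport kinesins, 6.29 with members of at least 10 reads in both libraries, where 10 mitotic genes were left, and 7.06 with protein_coding transcripts only. Restriction to protein_coding transcripts was chosen after seeing the data. The light to heavy chain ratio of kinesin-1 was 0.42 with kallisto-format TPM and 0.51 with protein_coding transcripts, the intermediate to heavy chain ratio of dynein 1 was 1.08 with kallisto-format TPM, and the transport share of kinesin TPM was 88.2% and 87.1% under those settings. With spike-in totals, 18 members were unequal, 17 of them higher in replicate 2. These 18 included 6 of the 9 found with TMM scaling, and 1 member, Kifc5b, passed 2-fold. Spike-in scaling shifts the ratios of all genes alike, and the share of all genes called with it is not given here. The counts of members called are therefore not a result about the motors. With only 1 animal, the median coding percent of the members ranged from 91.4 to 95.6, and the gap from 6.65 to 6.90. The cause of these shifts was not tested. The number of detected members lay between 37, at a TPM minimum of 5, and 51, at 0.5. Depth limits the mitotic kinesins, of which 10 of 14 reached 10 reads in a library, and the other kinesins, with 5 of 7. No paired analysis was possible because the data hold 1 group.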

Other observations

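The RSEM-format and kallisto-format tables gave mean levels more than 1.5-fold apart for 4 of the 49 detected members. Kif22 had 2.42 TPM in replicate 2 and 2.45 TPM in replicate 1 in the RSEM format, against 5.29 and 5.49 TPM in the kallisto format. Dynlt1c, Kif5c and Kif5b had ratios of kallisto-format to RSEM-format means of 1.94, 1.51 and 1.51. Kif24, which was under the detection level at 0.59 TPM in replicate 2 and 0.36 TPM in replicate 1, had 9.59 and 7.36 TPM in the kallisto format, where the processed transcript Kif24-204 took 93.8% and 94.8% of it.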
